A study of Sus scrofa with 17 samples.

Results

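The genes described here encode the part of the cardiac extracellular matrix that is not fibrillar collagen, together with enzymes that crosslink and remodel it. They are the rows of the count table that carry 1 of 38 listed gene names, with the most-counted row where a name is repeated, and that passed a filter on low counts. Of the 38, 37 had a row and all 37 passed the filter, which kept 15884 of 35670 rows. TIMP2 had no row under that name and was not analysed. By role, the 37 genes are 11 basement membrane and other non-fibrillar collagens, 10 glycoproteins and matricellular proteins, 5 elastic fibre genes, 4 small leucine-rich proteoglycans, 3 crosslinking enzymes, and 4 proteases and inhibitors.

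Myocardium of the right ventricle from 17 pigs (Sus scrofa) was profiled by RNA sequencing, 1 library per animal. All animals, controls included, had right ventricular pressure overload. In the multidose group (n = 7) they received repeated intramyocardial administration of mononuclear cells from umbilical cord blood (UCB-MNC), in the single dose group (n = 5) they received these cells once, and in the vehicle control group (n = 5) they received vehicle. The cell numbers per dose, the interval to harvest, sex, weight and batch of each library were not available from the labels used, and there was no group without pressure overload, so changes due to the overload itself were outside the comparisons. The labels also give each library a name. Names begin with M1 in 5 libraries (multidose 1 to 4 and single dose 1) and with M8 or M9 in the other 12, among them all 5 vehicle controls. What the names stand for is not stated.

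Fibrillar collagens give the myocardium its tensile strength, while the genes described here build the matrix around and between those fibres. Collagen IV forms the sheet of the basement membrane around cardiomyocytes and capillaries, collagen VI links that sheet to the interstitium, and elastin on a fibrillin scaffold gives recoil. Matricellular proteins such as thrombospondins, tenascin C and periostin mostly signal to cells and are known to be induced in injured or overloaded hearts. Small leucine-rich proteoglycans such as decorin bind collagen fibrils and set their spacing, lysyl oxidases crosslink collagen and elastin, and metalloproteinases degrade matrix under the control of their TIMP inhibitors.

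Total counts per library ranged from 21754800 to 61144663. They were 21754800 to 40969168 in the M1 libraries and 40621934 to 61144663 in the M8 and M9 libraries. The 37 genes together took 0.674% to 1.28% of the counts of a library. Values are counts scaled by the library total (CPM), not corrected for gene length, and are compared only between libraries of the same gene. In bulk tissue, fewer cells of a type and less RNA per cell cannot be told apart. Cardiomyocyte markers (10 of 10 tested) summed to 47592 to 88447 CPM, so the defining markers of the labelled tissue were present in all 17 libraries. Where the text speaks of a change, edgeR's quasi-likelihood test gave an adjusted p under 0.05, with the Benjamini-Hochberg adjustment over all 15884 genes.

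The levels varied widely between animals of the same group. The SD of log2 CPM within the dosing groups had a median of 0.53 over the 37 genes against 0.35 over all 15884 genes, and 34 of the 37 lay above that all-gene median. The spread was largest for COMP, FMOD and CTHRC1 and smallest for THBS1 and LOXL2. COMP, a pentameric glycoprotein of cartilage, tendon and fibrotic matrix that binds collagen, had an SD of 3.03 log2 units, which put it at the 99.9th percentile of all genes. These SDs include any difference between library names, since both dosed groups hold M1 and other names. With the name class also held, the SD of COMP was 2.29.

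COMP had no count in multidose 1 and single dose 1, where 3 counts would correspond to 0.127 and 0.138 CPM, a limit that covers counting error only. In the other multidose libraries it was 0.224 CPM in multidose 2, 1.74 in multidose 3, 1.33 in multidose 4, 25.8 in multidose 5, 6.42 in multidose 6 and 4.07 in multidose 7. The other single dose libraries held 0.103, 1.23, 51.7 and 8.13 CPM in the order of their numbers, and the 5 vehicle controls 2.65, 12.98, 9.52, 2.66 and 2.09 CPM. The high values therefore came from 1 animal of each dosed group, single dose 4 and multidose 5, and the ranges of the 3 groups overlapped.

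FMOD encodes fibromodulin, a small leucine-rich proteoglycan that binds collagen fibrils. It was 11.8 to 75.2 CPM in the vehicle controls (median 61.5), 15.97 to 169 in the multidose group (median 44.4) and, in ascending order, 10.6, 18.3, 35.0, 40.3 and 290 CPM in the single dose group. Single dose 4 was again the highest library and multidose 5 the next. CTHRC1, a secreted protein of activated fibroblasts, behaved otherwise: it was 13.9 CPM in multidose 1, 14.4 in multidose 3 and 13.9 in multidose 4, and between 0.959 and 6.63 in all other libraries.

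Some libraries stood high or low over many of the genes at once, as the plot of all 37 genes by library shows. Relative to the mean of the 12 M8 and M9 libraries, the median gene was 0.54 log2 units higher in single dose 4, with 30 of 37 genes above that mean. The corresponding medians were 0.49 in multidose 4 (28 genes above), 0.38 in vehicle control 1 (33 above) and 0.33 in vehicle control 3 (29 above). At the other end, 35 of 37 genes were below the mean in multidose 7 (median -0.28) and 33 in single dose 3 (median -0.32). High and low libraries thus occurred in every dosing group. Single dose 4 held the highest value of 13 of the 37 genes and multidose 4 that of 11.

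**Figure D1:**
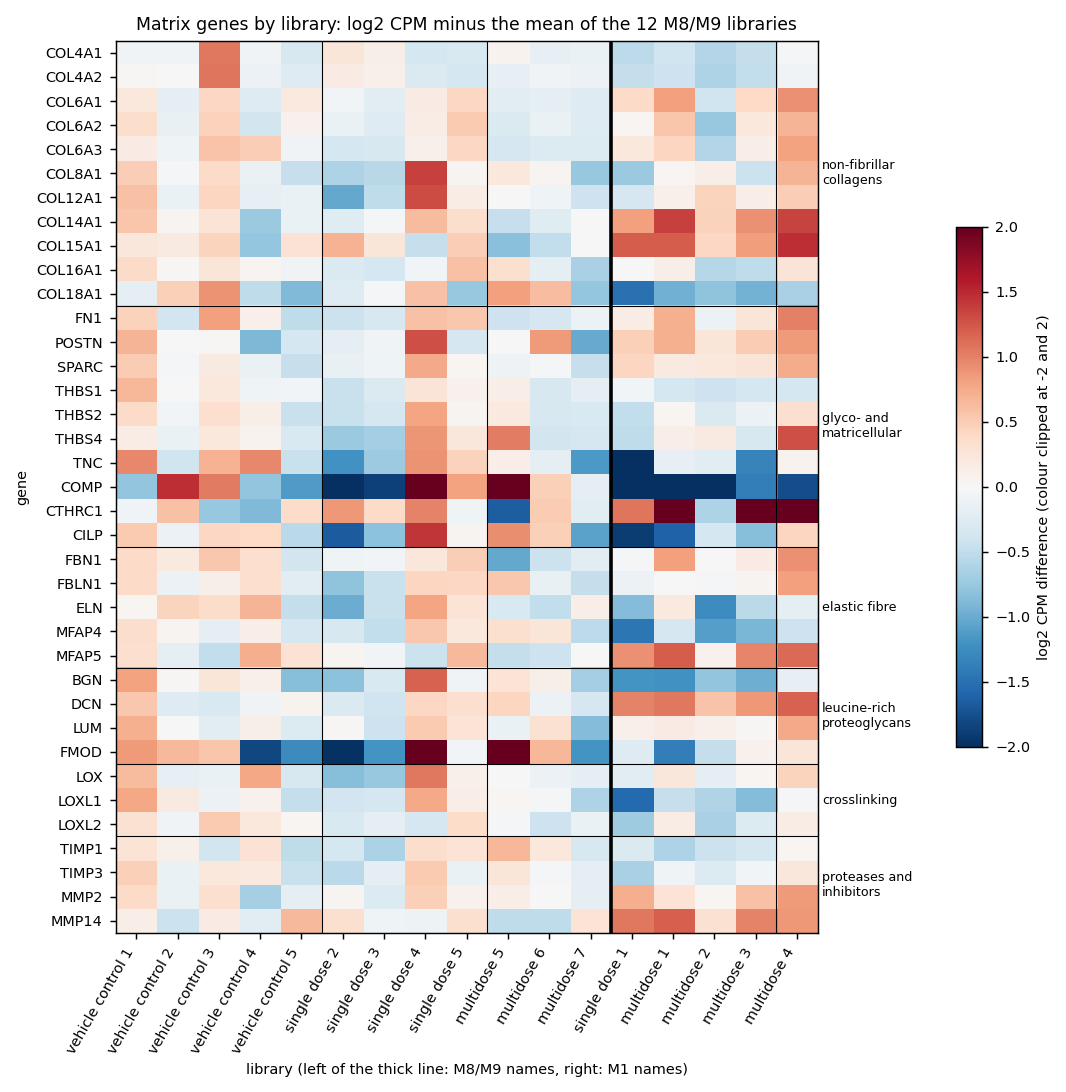
Each row is 1 of the 37 genes, ordered by role, and each column 1 library; colour gives log2 CPM minus the mean of the 12 M8 and M9 libraries, clipped at -2 and 2. Single dose 4 is high in 30 of 37 genes, vehicle control 3 stands out for COL4A1 and COL4A2, and the M1 libraries to the right of the thick line are high for COL14A1, COL15A1, MFAP5, DCN and MMP14 and low for COMP, COL18A1 and MFAP4.

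The question of the study was whether repeated cell doses change gene expression differently from a single dose or vehicle. None of the 37 genes changed in any of the 3 dosing comparisons by edgeR. The background was also empty: 0% of the 15884 genes passed in multidose against vehicle control, 0% in single dose against vehicle control and 0% in multidose against single dose. DESeq2 and limma-voom with quality weights called 0 of the 37 genes in each comparison as well. At an unadjusted p under 0.05 by edgeR, 4 of 37 genes passed in multidose against vehicle control, where 12.6% of all genes did. In single dose against vehicle control 1 of 37 passed against 5.26% of all genes, and in multidose against single dose 0 of 37 against 2.11%. None of the 37 had CPM ranges that were separate between groups in a dosing comparison. Of all genes, 0.145% were separate and higher and 0.126% separate and lower in multidose against vehicle control, 0.422% and 0.453% in single dose against vehicle control, and 0.0378% and 0.0315% in multidose against single dose.

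Medians of signed differences describe the balance of directions over the genes, not the size of the differences. Over the 37 genes, multidose against vehicle control spanned log2 fold changes of -0.80 to 1.30. In multidose against vehicle control the median log2 fold change was -0.05 over the 37 genes and -0.01 over all genes, with 15 genes positive and 22 negative. The single dose comparison with the same controls gave a median of -0.07 against 0.00 for all genes, also with 15 positive and 22 negative. Without single dose 4 that median was -0.29. Multidose against single dose gave 0.00 for the 37 and for all genes, with 19 positive and 18 negative. All M1 libraries were in dosed animals, so the dosing comparisons also differed in the share of M1 names. Among M8 and M9 libraries alone, which left 3 multidose animals, the median in multidose against vehicle control was -0.27 against -0.01 for all genes, with 8 genes positive and 29 negative. In the same libraries multidose against single dose gave a median of -0.25 against -0.01 for all genes, with 7 genes positive and 30 negative, while single dose against vehicle control gave -0.01 against 0.00, with 17 positive and 20 negative. By edgeR 0 of the 37 genes passed in each of these, as did 0 of all 16178 genes tested.

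Among the glycoproteins, THBS1 had the smallest p of the 37 in multidose against vehicle control. It encodes thrombospondin 1, a matricellular protein that activates latent TGF-beta and restrains vessel growth. Its level was 151, 94.8, 111, 90.3 and 92.1 CPM in vehicle controls 1 to 5, and 71.3 to 105 CPM with a median of 74.6 in the multidose group. Only multidose 5, at 105 CPM, lay within the range of the controls, and 6 of 7 multidose libraries lay below it. The log2 fold change was -0.43 (edgeR adjusted p = 0.366, unadjusted p = 0.0106, SE 0.15), -0.30 among M8 and M9 libraries and -0.28 without vehicle control 1. The single dose libraries held 92.0, 70.0, 78.2, 114.2 and 101 CPM, spanning the multidose range and overlapping that of the controls (log2 fold change against vehicle control -0.24, SE 0.16, adjusted p = 0.891 by edgeR). Without vehicle control 1 that difference was -0.10.

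CTHRC1 had the largest positive difference of the 37, with a log2 fold change of 1.30 in multidose against vehicle control (edgeR adjusted p = 0.388, SE 0.57). The vehicle controls held 2.96, 4.70, 1.82, 1.67 and 4.03 CPM, and the multidose group 0.959 to 14.4 CPM with a median of 4.43. The 3 multidose libraries above the controls, multidose 1, 3 and 4, all carry M1 names. With M8 and M9 libraries alone the difference was -0.18, so its direction turned. TNC, which encodes tenascin C, had the largest negative difference, -0.80 (edgeR adjusted p = 0.431, SE 0.42), with -0.81 among M8 and M9 libraries. It was 11.7 to 31.0 CPM in the controls, 6.30 to 17.5 in the multidose group and 3.96 to 29.7 in the single dose group.

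Among the non-fibrillar collagens, COL4A1 and COL4A2 encode the chains of the ubiquitous collagen IV network. COL4A2 was 815, 803, 1677, 738 and 665 CPM in vehicle controls 1 to 5, 521 to 759 CPM with a median of 715 in the multidose group, and 572, 892, 854, 653 and 625.0 CPM in single dose 1 to 5. COL4A1 was 1171, 1168, 2552, 1172 and 981 CPM in the controls, 815 to 1289 CPM with a median of 1095 in the multidose group, and 850, 1459, 1338, 963 and 990 CPM in the single dose group. Vehicle control 3 exceeded every other library for both genes, and the remaining ranges overlapped. In multidose against vehicle control the log2 fold changes were -0.50 for COL4A2 (SE 0.21, adjusted p = 0.384) and -0.43 for COL4A1 (SE 0.22, adjusted p = 0.428) by edgeR. Without vehicle control 3 they were -0.18 and -0.10. In single dose against vehicle control, which shares these controls, they were -0.39 and -0.33 (adjusted p = 0.891 for each by edgeR), and without vehicle control 3 they were -0.07 and 0.00.

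Of the other collagens, COL14A1 differed by 0.58 (SE 0.32) and COL15A1 by 0.46 (SE 0.37) in multidose against vehicle control, and both had negative differences, -0.30 and -0.54, in M8 and M9 libraries alone. The collagen VI genes, which encode the beaded microfilaments that anchor cells to the interstitium, differed by 0.15 (COL6A1), -0.03 (COL6A2) and -0.17 (COL6A3). Over the 17 libraries they ranged from 175 to 433, 132 to 358 and 158 to 417 CPM. COL8A1, a short-chain collagen of vessel walls, ranged from 69.3 to 305 CPM, the fibril-associated COL12A1 from 21.3 to 107 and COL16A1 from 23.5 to 55.5, with differences of -0.03, -0.03 and -0.26. None of these passed by edgeR.

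The lysyl oxidases all had lower means in the multidose group, without passing the test. LOXL2, which crosslinks collagen IV and fibrillar collagen, was 75.5, 58.4, 87.9, 70.9 and 63.0 CPM in the vehicle controls and 37.2, 49.7, 53.4, 48.5 and 79.2 CPM in the single dose group. The multidose group spanned 39.2 to 67.8 CPM with a median of 55.7. All single dose libraries except single dose 5 lay below every control. The log2 fold change was -0.41 in single dose against vehicle control (SE 0.19, unadjusted p = 0.0421, adjusted p = 0.891) and -0.36 in multidose against vehicle control (SE 0.17, adjusted p = 0.395) by edgeR. LOX, which acts on collagen and elastin, ranged from 22.4 to 84.3 CPM (multidose against vehicle control -0.18), and LOXL1, which is needed for elastic fibre renewal, from 25.2 to 127 CPM (-0.48).

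None of the small leucine-rich proteoglycans or elastic fibre genes passed in a dosing comparison. DCN, which encodes decorin, was 681, 392, 378, 446 and 492.5 CPM in the controls, 930, 385, 355, 626 and 587 CPM in the single dose group and 371 to 1065 CPM with a median of 698 in the multidose group. Its difference in multidose against vehicle control was 0.59 (edgeR adjusted p = 0.400, SE 0.28) and -0.01 among M8 and M9 libraries. BGN, which encodes biglycan, was 474, 276, 323, 293 and 151 CPM in the controls, 119, 154, 220, 618 and 258 CPM in the single dose group and 118.1 to 328 CPM with a median of 170 in the multidose group. The single dose range covered that of the controls and of all multidose libraries but the lowest, and the difference between multidose and single dose was -0.40 (edgeR adjusted p = 1, SE 0.37). Without single dose 4 it was 0.14, so its direction turned. LUM (lumican) ranged from 111 to 343 CPM and differed by 0.01 between multidose and vehicle control.

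The elastin gene ELN ranged from 121.2 to 498 CPM and differed by -0.54 (SE 0.30) between multidose and vehicle control, and FBN1, which encodes fibrillin 1, ranged from 110 to 423 CPM and differed by -0.08 (SE 0.27). Among M8 and M9 libraries alone the FBN1 difference was -0.78 (edgeR adjusted p = 1, SE 0.24). FBLN1 (fibulin 1) ranged from 155 to 481 CPM and differed by 0.04. Between multidose and single dose, THBS4, a thrombospondin of stressed muscle and tendon, had the second smallest p of the 37. It was 160 to 502 CPM with a median of 225 in the multidose group and 146, 124, 128, 382 and 242 CPM in the single dose group, a log2 fold change of 0.39 (edgeR adjusted p = 1, SE 0.33) that was 0.16 without multidose 4 and 0.74 without single dose 4. The vehicle controls, at 167 to 239 CPM, lay inside the ranges of both.

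The remaining glycoproteins, proteases and inhibitors showed no dosing difference that passed. FN1 (fibronectin) ranged from 125 to 359 CPM, POSTN (periostin, secreted by activated fibroblasts) from 32.3 to 158, SPARC (a collagen-binding matricellular protein) from 902 to 2087, THBS2 from 43.1 to 105 and CILP, a matrix protein expressed by cardiac fibroblasts, from 44.3 to 444 CPM. MMP2, a gelatinase, ranged from 103 to 296 CPM and differed by 0.29 (SE 0.22) between multidose and vehicle control. The inhibitor genes TIMP1 and TIMP3 ranged from 17.6 to 43.4 and from 247 to 560 CPM and differed by -0.05 and -0.10.

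**Figure D2:**
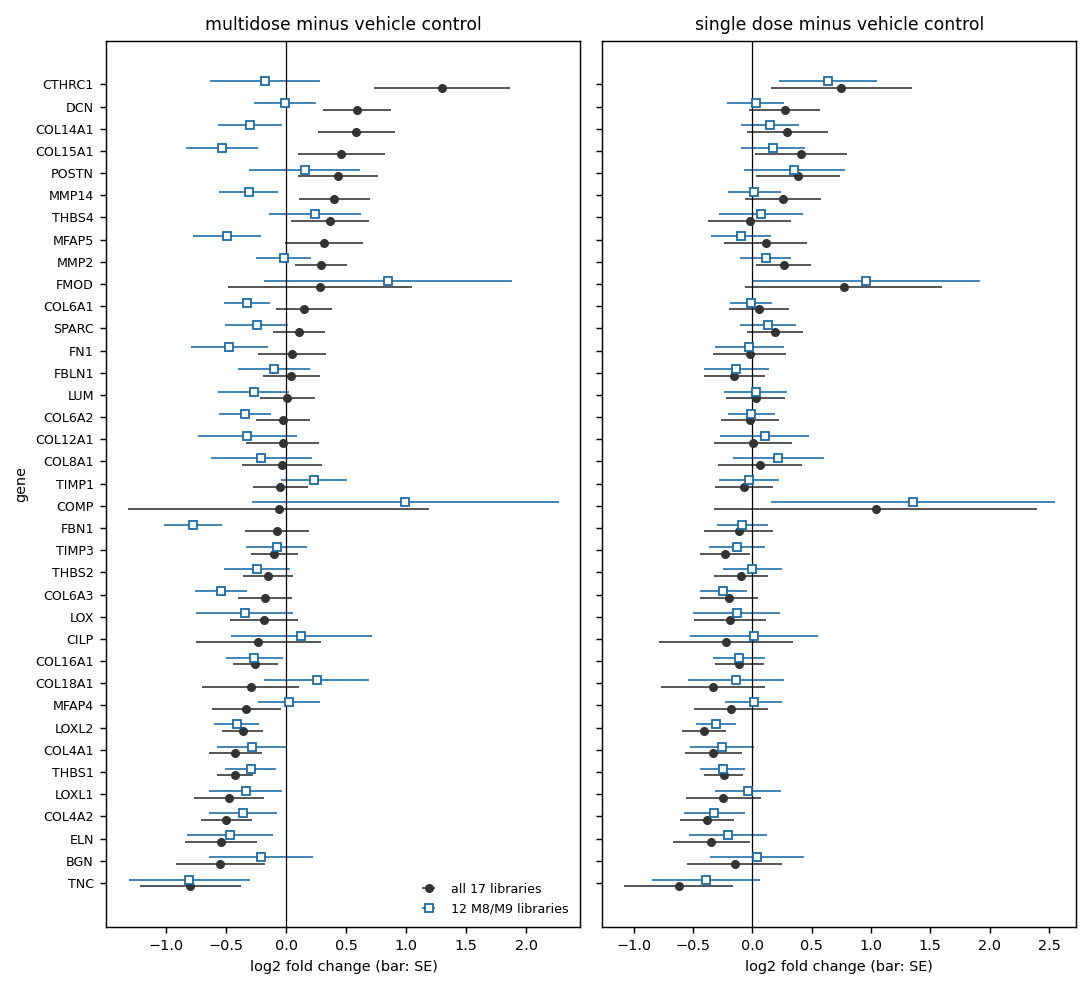
Log2 fold changes (horizontal axis) with their SE (bars) of the 37 genes in multidose (left) and single dose (right) against vehicle control, from edgeR fits to all 17 libraries (filled circles) and to the 12 M8 and M9 libraries (open squares). No gene passed an adjusted p of 0.05; with all libraries CTHRC1 (1.30) and TNC (-0.80) mark the ends on the left, and the CTHRC1 square there lies at -0.18.

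The library names separated the samples further than dosing did. With the dosing group held constant, M1 libraries differed from M8 and M9 libraries in 8 of 37 genes by edgeR, 21.6% of them, against 14.0% of all genes. Of the 37, 5 were higher in M1 libraries, where 5.92% of all genes were, and 3 were lower, where 8.06% of all genes were. At an unadjusted p under 0.05, 14 of 37 genes passed against 29.9% of all genes. The median log2 fold change was -0.01 over the 37 genes, the same as over all genes, with 18 positive and 19 negative. The higher genes were MMP14, COL15A1, DCN, COL14A1 and MFAP5, and the lower ones MFAP4, COL18A1 and COMP, so that the collagens (2 higher, 1 lower) and the elastic fibre genes (1 and 1) had calls in both directions. Of the other roles, 1 glycoprotein was lower, 1 proteoglycan and 1 protease were higher, and 0 of the 3 crosslinking enzymes passed.

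MMP14, a membrane-anchored metalloproteinase that cleaves collagen and activates MMP2, had the smallest p. It was 76.5, 41.1, 66.4 and 60.8 CPM in multidose 1 to 4 and 69.0 CPM in single dose 1, the 5 M1 libraries. In the 12 M8 and M9 libraries it was 23.4 to 52.0 CPM with a median of 34.0. Only multidose 2 fell inside the range of the other names. The level rose by 1.03 log2 units in M1 libraries (edgeR adjusted p = 0.00602, SE 0.21), a 2.04-fold difference.

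COL15A1 encodes a basement membrane collagen whose end fragment is known to restrain vessel growth. The M1 libraries held 331, 190, 254, 397 and 328 CPM, in the same order, against 79.9 to 231 CPM with a median of 163 in the others. Multidose 2 again was the M1 library inside the other range. The log2 fold change was 1.28 (edgeR adjusted p = 0.00693, SE 0.27).

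COL14A1, a fibril-associated collagen that interacts with decorin, held 218, 116.99, 159, 217 and 149 CPM in the M1 libraries and 50.7 to 132 CPM with a median of 83.3 in the others. It rose by 1.09 (edgeR adjusted p = 0.0103, SE 0.25), with overlap through multidose 2 alone. DCN held 977, 698, 853, 1065 and 930 CPM in the M1 libraries and 355 to 681 CPM with a median of 439 in the others. It was the only one of the 37 genes whose ranges were separate between the name classes, where 2.73% of all genes were separate with M1 higher and 3.01% with M1 lower. The increase was 0.92 (edgeR adjusted p = 0.00994, SE 0.21).

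MFAP5 and MFAP4 encode microfibril-associated proteins of the elastic fibre, and they moved in opposite directions. MFAP5 held 176, 80.8, 150, 168 and 144 CPM in the M1 libraries and 54.2 to 127 CPM with a median of 74.7 in the others, a rise of 1.08 (edgeR adjusted p = 0.0120, SE 0.25). MFAP4 held 133, 78.7, 88.8, 126 and 62.0 CPM in the M1 libraries and 117.1 to 245 CPM with a median of 180 in the others, a fall with a log2 fold change of -0.94 (edgeR adjusted p = 0.0184, SE 0.24). For MFAP5 only multidose 2 overlapped the other libraries, and for MFAP4 multidose 1 and 4 did.

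COL18A1, the basement membrane collagen that carries endostatin at its end, was also lower in M1 libraries. It held 119, 131, 119, 147 and 81.3 CPM there and 125 to 427 CPM with a median of 214 in the others. The log2 fold change was -1.28 (edgeR adjusted p = 0.0225, SE 0.35), and multidose 2 and 4 lay within the other range. COMP, at 0 to 1.74 CPM in M1 libraries and 0.103 to 51.7 CPM with a median of 5.25 in the others, had an adjusted p just under the threshold. Its fitted log2 fold change was -4.38 (edgeR adjusted p = 0.0496, SE 1.40). That value depends on edgeR's own default prior count in the fit, not that of log2 CPM, because 2 of the 5 M1 libraries were at 0.

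**Figure D3:**
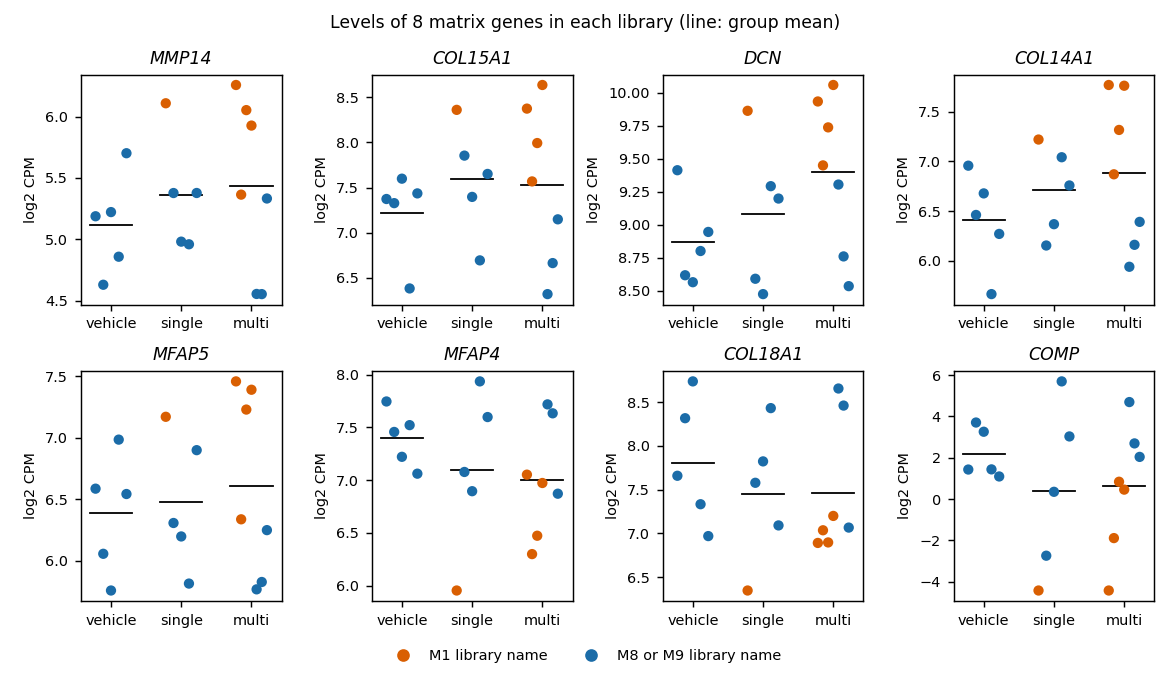
Log2 CPM of the 8 genes that differed by library name, each point 1 library and each line the mean of a dosing group (vehicle control, single dose, multidose); orange points are M1 libraries. For MMP14, COL15A1, DCN, COL14A1 and MFAP5 the M1 points lie at the top of their dosing groups, and DCN is the gene without overlap between names.

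The calls were not equally firm when 1 library was left out at a time. COL14A1, COL15A1, MFAP5 and MMP14 passed in all 17 such fits. DCN passed in 16 and missed without single dose 1 (adjusted p = 0.0518 by edgeR). MFAP4 passed in 15, missing without single dose 1 or multidose 5, and COL18A1 in 14, missing without single dose 1, multidose 5 or multidose 6. COMP passed in only 5 of 17, with adjusted p from 0.0297 to 0.153 by edgeR. Within the multidose group alone, 4 M1 against 3 other libraries, all 5 higher genes passed and none of the lower ones did. There the log2 fold changes were 1.08 for MMP14, 1.45 for COL15A1, 0.92 for DCN, 1.31 for COL14A1 and 1.21 for MFAP5, and -1.19 for COL18A1 and -0.71 for MFAP4. COMP did not pass the low-count filter in that subset.

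CTHRC1 missed the threshold with the largest positive difference of the 37, 1.61 (edgeR adjusted p = 0.0567, SE 0.54). It was 13.9, 2.02, 14.4, 13.9 and 6.63 CPM in the M1 libraries and 0.959 to 6.22 CPM with a median of 3.50 in the others. COL6A1 (0.60, adjusted p = 0.0709), MMP2 (0.53, adjusted p = 0.0766) and FBN1 (0.70, adjusted p = 0.0880) followed by edgeR. BGN, with -0.90 (edgeR adjusted p = 0.116, SE 0.37), FMOD with -1.30 (SE 0.84) and CILP with -1.11 (SE 0.58) had negative differences that did not pass. The 3 lysyl oxidases differed by 0.08 (LOX), -0.66 (LOXL1) and -0.14 (LOXL2) and none passed.

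**Figure D4:**
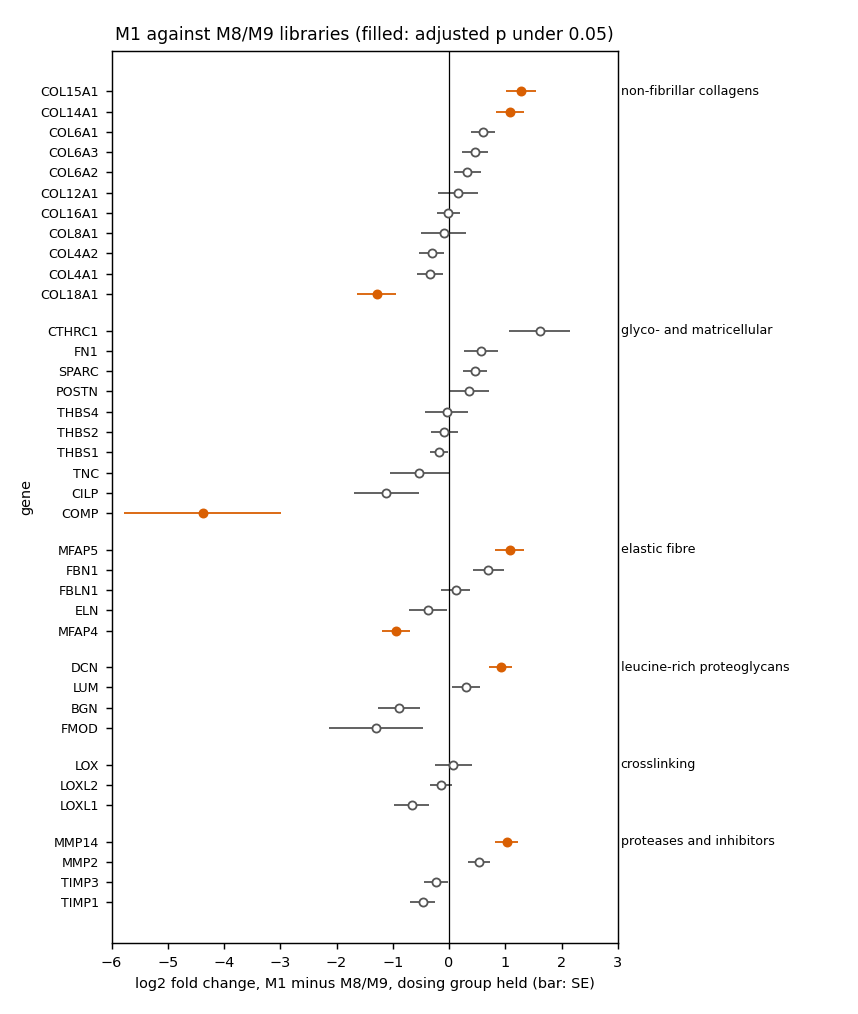
Log2 fold changes of M1 against M8 and M9 libraries with the dosing group held constant (points, with SE as bars) for the 37 genes; filled points have an adjusted p under 0.05 by edgeR. The 5 filled points to the right lie between 0.92 (DCN) and 1.28 (COL15A1), and COMP lies farthest to the left at -4.38 with the widest bar.

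Other measures were also compared by library name. The lowest total counts of the 17 were those of 4 of the 5 M1 libraries, all but multidose 4, and 1 of the 5 M1 names but 10 of the 12 others carried the ending R. With that ending as a covariate all 8 genes still passed in all 17 libraries, and 6 of the 8, all but COMP and MFAP4, did in dosed animals only. Fibroblast markers outside the 37 (8 of 10 tested) summed to 1622 to 3010 CPM in M1 libraries with a median of 2681, and to 990 to 2324 with a median of 1563 in the others. Each sum covers all listed genes with a row, also those not tested. Most of the fibroblast sum was GSN, at 1176 to 2508 CPM in M1 libraries (median 2184) and 750 to 2032 in the others (median 1219). Of the 8 tested fibroblast markers, PDGFRA (1.25, adjusted p = 0.00476) and C7 (1.21, adjusted p = 0.0115) rose and MEOX1 (-1.33, adjusted p = 0.0283) fell by edgeR. C7 missed the threshold without single dose 1, and MEOX1 did so in 6 of 17 fits with 1 library removed. Mural and smooth muscle markers (10 of 10 tested) summed to 771 to 1161 CPM against 1066 to 2139, with CNN1 lower. CNN1 alone was 47.9 to 168 CPM in M1 libraries and 188 to 1120 in the others. Schwann cell markers (5 of 6 tested) had 4 higher members, with sums of 10.9 to 17.6 CPM against 3.85 to 16.5. Epicardial and mesothelial markers (5 of 8 tested, 1 higher) summed to 35.6 to 65.5 CPM against 24.2 to 55.7. Adipocyte markers (4 of 6 tested, 1 higher) summed to 119 to 279 CPM against 72.02 to 272. Nearly all of that was FABP4, at 115 to 275 CPM against 70.6 to 270. Endothelial markers (10 of 10, 1 higher) summed to 1048 to 1324 CPM against 931 to 1670, and macrophage and leukocyte markers (10 of 10, 1 lower) to 279 to 419 against 247 to 575. None of the cardiomyocyte or cartilage markers tested passed. Over all genes 14.0% passed by library name, and 10.0% did in each of the mural, endothelial, and macrophage and leukocyte lists. The share was 80.0% for Schwann, 37.5% for fibroblast, 25.0% for adipocyte and 20.0% for epicardial and mesothelial markers. The part of total counts, cell makeup or any property of the names in the differences of the 37 genes was not tested. In multidose against vehicle control no marker passed by edgeR, and 49.3% of all genes were positive. There 9 of 10 cardiomyocyte and 6 of 8 fibroblast markers were positive, with 5 of 10 macrophage and leukocyte markers. Mural (9 of 10) and endothelial markers (8 of 10) were mostly negative. Whether these leanings bear on the dosing differences of the 37 genes was not tested.

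Beyond the 37 genes, a list of 94 further matrix genes was examined, of which 90 had a row and 83 were tested. None passed in a dosing comparison by edgeR. In single dose against vehicle control, 2 of the 83 had separate CPM ranges with single dose lower, as did 0.453% of all genes. These were LAMA5 (79.7 to 175 CPM against 184 to 359) and FBN2 (11.4 to 31.4 against 31.6 to 65.8). The median log2 fold changes of the 83 genes were -0.13 in multidose against vehicle control, -0.07 in single dose against vehicle control and 0.01 in multidose against single dose. The smallest p in the first comparison belonged to ADAMTS4, an aggrecan-cleaving protease (-1.77, SE 0.52, adjusted p = 0.366 by edgeR), and to FBN2, which encodes fibrillin 2 (-1.12, SE 0.35). ADAMTS4 was 1.40 to 2.18 CPM in the multidose group and 2.96, 1.21, 2.95, 20.1 and 1.59 CPM in the controls, so vehicle control 4 alone was far above the rest, and without it the difference was -0.37. FBN2 was 11.9 to 17.2 CPM in multidose 1 to 4, which carry M1 names. It was 9.94, 26.3 and 52.3 CPM in multidose 5, 6 and 7. In the second, P4HA1, a prolyl hydroxylase of collagen (-0.69, SE 0.24), and ECM1 (-0.71, SE 0.25) had the smallest p, both at an adjusted p of 0.891 in edgeR. P4HA1 was 171 CPM in vehicle control 4 and 59.8 to 82.5 in the other controls, and without that library its difference was -0.32. Between the dosed groups the smallest p belonged to MATN3 (-1.64) and OMD (0.53), each with an adjusted p of 1. MATN3 was 8.44 CPM in single dose 4 and 0.0920 to 1.49 in the other single dose libraries, and without that library its difference was -0.07.

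By library name, 10 of these 83 genes were higher and 8 lower in M1 libraries by edgeR, 21.7% of them, where 14.0% of all genes passed, 5.92% higher and 8.06% lower. LAMA5, a laminin chain of basement membranes, fell with a log2 fold change of -1.19 (edgeR adjusted p = 0.00162, SE 0.19). It was 70.5 to 94.8 CPM in the 5 M1 libraries and 116.8 to 359 CPM in the other 12, with no overlap. LAMB1, another laminin chain, rose by 0.80 (adjusted p = 0.00909), as did SPARCL1, a relative of SPARC, by 0.79 (adjusted p = 0.00754) and ECM2 by 0.72 (adjusted p = 0.0101) by edgeR. LAMB1 was 154 to 267 CPM in M1 libraries and 91.5 to 173 in the others, SPARCL1 465.9 to 862.02 against 291 to 522, and ECM2 97.0 to 182 against 59.7 to 99.0, so these 3 overlapped. ECM2 missed the threshold without single dose 1.

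In addition, 8 chosen pairs of genes were compared across the 12 M8 and M9 libraries, and 5 were correlated after adjustment over the 8. COMP with FMOD and TIMP1 with THBS1 pair different roles, and the genes of every other pair share a role. COL6A1 and COL6A2 had a Pearson r of 0.97 (two-sided permutation test, adjusted p = 8e-05; Spearman rho 0.94), and 0.94 without the 2 libraries farthest from the median. COL4A1 and COL4A2 also had an r of 0.97 (permutation adjusted p = 0.00016; rho 0.82), and 0.80 without those 2 libraries, vehicle control 3 among them. COMP and FMOD had an r of 0.84 (permutation adjusted p = 0.000907; rho 0.77; 0.78 without 2), FN1 and TNC 0.75 (permutation adjusted p = 0.0143; rho 0.67; 0.69 without 2) and DCN and LUM 0.67 (permutation adjusted p = 0.0247; rho 0.68; 0.69 without 2). The pairs POSTN and CTHRC1 (0.41), MFAP4 and ELN (0.45), and TIMP1 and THBS1 (0.46) did not pass. Centring each dosing group on its mean left the same 5 pairs past the threshold. Other gene pairs were not compared, and some libraries were high or low over many of the genes at once. Whether the 5 pairs are more closely correlated than other pairs was not tested.

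Genes of some of these pairs are neighbours in the genome. In the RefSeq annotation of Sscrofa11.1, COL4A1 (chromosome 11, 76858332 to 76997409) and COL4A2 (chromosome 11, 76996885 to 77161617) overlap by 525 bases at their adjoining ends. Reads from exons of both genes there could not be assigned to one gene where the counting ignored strand. No source used here gives the strand setting. DCN (chromosome 5, 91678601 to 91713925) and LUM (chromosome 5, 91748871 to 91756381) lie 34945 bases apart and do not overlap. In that annotation TIMP1 lies within SYN1, TIMP3 within SYN3 and LOX within the span of LOC100525452, and MFAP4 shares 77 bases with MAPK7, so their counts carry the same uncertainty.

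**Figure D5:**
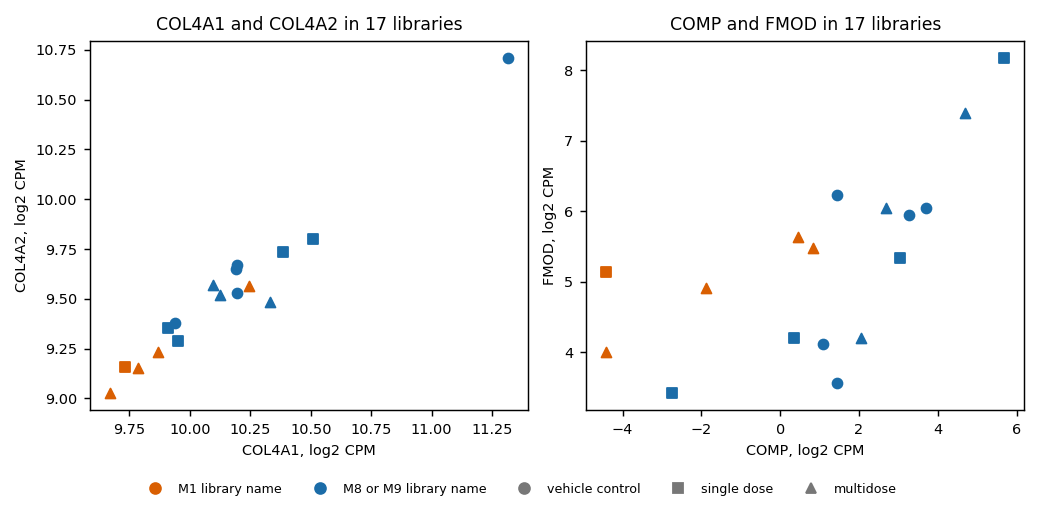
Log2 CPM of COL4A1 against COL4A2 (left) and COMP against FMOD (right), each point 1 of the 17 libraries, with shape for dosing group and colour for library name. Vehicle control 3 stands alone at the upper right on the left, and single dose 4 and multidose 5 at the upper right on the right; the M8 and M9 points gave r of 0.97 and 0.84.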

How the data were processed

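The deposited table holds raw counts per Ensembl gene for 17 libraries, 1 per animal per the labels' design text. Per the submitters' processing notes, the tools were HISAT2 2.1.0, Subread 1.6.2, Trimmomatic 0.33, SAMtools 1.7 and FastQC 0.11.7 on the build Sscrofa11.1, with no roles given. Strand setting and annotation release: not given in the sources used here. The deposited values are whole numbers, and no 2 libraries were identical.

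The main tool was edgeR 4.0.16 (R 4.3.3), with filterByExpr by group, TMM scaling and a robust quasi-likelihood fit with 1 coefficient per dosing group, in all 17 libraries. For library names, an M1 term was added. Tests were two-sided, adjusted by Benjamini-Hochberg over 15884 genes. Each SE is the fold change divided by the root of F. Log2 CPM carries a prior count of 2. Correlations used 1e+05 permutations. The fits were tested on simulated data.

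Alternatives were RLE scaling, other filters, DESeq2 1.42.0, limma-voom (limma 3.58.1), non-robust fits, covariates, library subsets, a replicate block and leaving out each library. The genes and lists were chosen with earlier results of these data known. Values per library (ranges and medians in groups of more than 5) are given for the 8 genes with the smallest p by library name, the 4 in each dosing comparison, and the 3 largest and 2 smallest within-group SDs; of the other matrix genes, the 4 and 2 with the smallest p are named. Other genes are given by range.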

Additional observations from a re-analysis of the deposited data

Results flagged for a closer look

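Of 111 combinations of a gene and a dosing group, 3 had 1 library that stood apart from the others of its group, where chance gives about 5% (Dixon's criterion, gap over range above 0.71 for 5 libraries). COL4A1 was highest in vehicle control 3 at 11.32 log2 CPM (2552 CPM), with a gap of 0.814 of the range. COL4A2 was highest in the same library at 10.71 log2 CPM (1677 CPM), with a gap of 0.780. COL15A1 was lowest in vehicle control 4 at 6.38 log2 CPM (83.5 CPM), with a gap of 0.777.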

How the results depend on the processing

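For the 37 genes, no value past the threshold changed direction under any alternative, but in the dosing comparisons none was past it. Of 1073 values not past it, the sign changed in 104 in multidose against vehicle control. The same held for 71 of 1073 in single dose against vehicle control and 161 of 1073 in multidose against single dose. COMP in single dose against vehicle control went from 1.04 to -1.61 with limma-voom and -2.21 with the replicate block. With an M1 name covariate, 20 of 37 signs differed in multidose against single dose. Genes called in multidose against vehicle control numbered 8 with DESeq2 and 1 with the replicate block, and 0 in every fit without a library. Single dose against vehicle control gave 10 with DESeq2 and 0 to 1 without a library, and multidose against single dose 0 to 1. By library name, all genes called numbered 4553 with limma-voom, 3783 with the name class alone, 712 in multidose libraries only, 11 with the replicate block and 858 to 2745 without a library (858 without single dose 1, 1450 without multidose 5, 1247 without multidose 6). Of the 37 genes, those higher in M1 libraries numbered 9 with DESeq2, 8 with the suffix covariate in dosed animals only, 0 with the replicate block and 5 to 7 without a library. Those lower numbered 7 with limma-voom, 5 with the name class alone, 1 with the suffix covariate in dosed animals only, 0 with the replicate block, 0 in multidose libraries only and 0 to 3 without a library. COMP lost its call with RLE scaling, no filter, limma-voom and dosed animals only. The 5 correlated pairs remained 5 throughout. The replicate block covers 15 libraries with numbers 1 to 5. Of 15 same-number pairs, 4 deviated together (r over 0.1, range -0.22 to 0.41). Pairs with unlike numbers were not compared, so whether the numbers pair the samples was not tested. The suffix covariate in dosed animals, and the suffix and M1 covariates together, were chosen after the data were seen. The causes of these shifts were not tested. No control had an M1 name, and 3 multidose and 4 single dose animals remained among M8 and M9 names, which limits how far dosing and name can be separated.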

Other observations

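The library with the highest collagen IV values also stood high for other basement membrane genes, which were looked up after its values had been seen. Vehicle control 3 had the highest level of the 17 libraries for HSPG2, the basement membrane proteoglycan perlecan, with 1587 CPM against 634 to 1077 CPM elsewhere. It was also the highest for the laminin chains LAMA5 (359 CPM), LAMB2 (780 CPM) and LAMC1 (634 CPM), for the laminin-binding NID2 (586 CPM against 151 to 375) and for COL4A5 (60.7 CPM against 12.5 to 34.0). COL4A6 was highest there too, at 2.41 CPM. It ranked 2 of 17 for NID1 and AGRN, 3 for LAMA4 and 7 for LAMB1. These are values of 1 animal, and no test was made.

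Single dose 4, the library with the highest COMP and FMOD, held the highest values of several genes known from cartilage and tendon. CHAD (chondroadherin) was 35.9 CPM there and at most 11.0 CPM elsewhere, CILP2 was 15.3 against at most 3.83, MATN3 8.44 against at most 1.92 and PRELP 498 against at most 346 CPM. COL2A1, the defining collagen of hyaline cartilage, was 1.04 CPM there and at most 0.329 elsewhere, and SOX9, the chondrocyte transcription factor, was 3.51 CPM and ranked 14 of 17. HAPLN1, the cartilage link protein, was 0.428 CPM and ranked 10, while the leucine-rich ASPN and OGN ranked 4 and 6 and the dermatopontin gene DPT ranked last, at 83.3 CPM. COL22A1, a collagen of tissue junctions, was highest at 8.48 CPM. ACAN, MATN1 and SNORC did not pass the low-count filter. These genes were also chosen after their values had been seen.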
